A study of Mus musculus with 40 samples.

Results

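The creatine cycle of brown fat was followed through 6 genes, Gatm, Gamt, Slc6a8, Ckb, Ckmt1 and Alpl, taken by symbol from a table of 52636 Ensembl genes. Muscle-type creatine kinases, Ckm and Ckmt2, were left out. Bulk RNA was sequenced from brown adipose tissue (the depot is not named) of 40 male C57BL/6 mice from Jackson, 5 in each of 8 groups. Mice of the control groups received 1 intraperitoneal dose of an anti-ragweed isotype antibody (RW, 40 mg/kg) and were sampled at 15 h, 5 d or 7 d. Mice of the Jag antibody groups received 1 dose of anti-Jag1 and anti-Jag2 (20 mg/kg each), antibodies that block Jagged ligands of the Notch receptors, and were sampled at the same times. A further group under each antibody was sampled at 7 d after daily thyroid hormone, T4 at 1 ug/g and T3 at 0.05 ug/g of body weight, starting at day 2. Age is given as 10 to 12 weeks in the design text and as 10 to 14 weeks in the protocol. The isotype antibody is the reference throughout. The labels do not state that each library is a separate animal in so many words. The p-values therefore measure the spread between these samples, called mice here.

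Creatine is made in 2 steps. Gatm joins arginine and glycine to guanidinoacetate, and Gamt methylates that intermediate with S-adenosylmethionine. Slc6a8 is the plasma membrane transporter that takes creatine up from the blood. In thermogenic fat, creatine kinases (brain-type Ckb and the ubiquitous mitochondrial Ckmt1) phosphorylate creatine with ATP, and the phosphatase TNAP, encoded by Alpl, can split phosphocreatine again, so that a cycle of phosphorylation and hydrolysis spends ATP and releases heat beside the uncoupling protein Ucp1.

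Library totals ran from 12217623 to 36511893 counts, with a median of 18949808, and 17079 genes passed the filter on low counts. Brown fat identity was present in every library, with Ucp1 at 554 to 21295 CPM (depth-scaled counts on TMM library sizes). Skeletal muscle RNA varied widely: Ckm ran from 0 to 20217 CPM, and the mean log2 CPM of 8 muscle markers, used as a muscle score, reached 9.90 ± 3.31 (SD, n = 5) at 5 d under the control antibody and -0.14 ± 1.95 under the Jag antibodies. That difference of -10.04 had an exact two-sided permutation p of 0.00794, the smallest that 5 against 5 mice can give, and an adjusted p of 0.0907 over the 80 score tests. Control mice 2 and 3 at 15 h stood apart in a score of 10 myeloid markers, at 8.61 and 6.67 against 2.55 to 4.25 in the other 3 mice of the group. The antibody differences of the tested members at 15 h are given below with and without control mice 2 and 3. So are some, not all, of the other member results that use control mice at 15 h. Some results that move with the muscle score are also given over mice with a score of 6 or less. Both kinds of fit were chosen after the data were seen. The low-score fits keep 1 control mouse at 5 d (mouse 2), 2 Jag antibody mice at 15 h, 5 at 5 d and 3 in each other group. In whole tissue, fewer cells of a type and less RNA per cell cannot be told apart.

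All 6 members were found among the symbols, and 5 of 6 passed the low-count filter. Scaled to exon length, so that genes can be compared, the median level over 40 mice was 8.16 CPM per kb for Slc6a8, 3.88 for Alpl, 3.55 for Gamt, 2.51 for Ckb, 1.43 for Gatm and 0.0255 for Ckmt1. The creatine transporter was the most abundant of the 6 per kb in 22 of 40 mice, Gamt and Alpl in 7 mice each, Ckb in 3 and Gatm in 1. Ckmt1 was last in 39 of 40. On the scale of mean log2 CPM, Slc6a8 stood at the 78.3rd percentile of the tested genes, Alpl at the 61.6th, Ckb at the 45.1st, Gamt at the 43.1st and Gatm at the 40.1st.

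**Figure D1:**
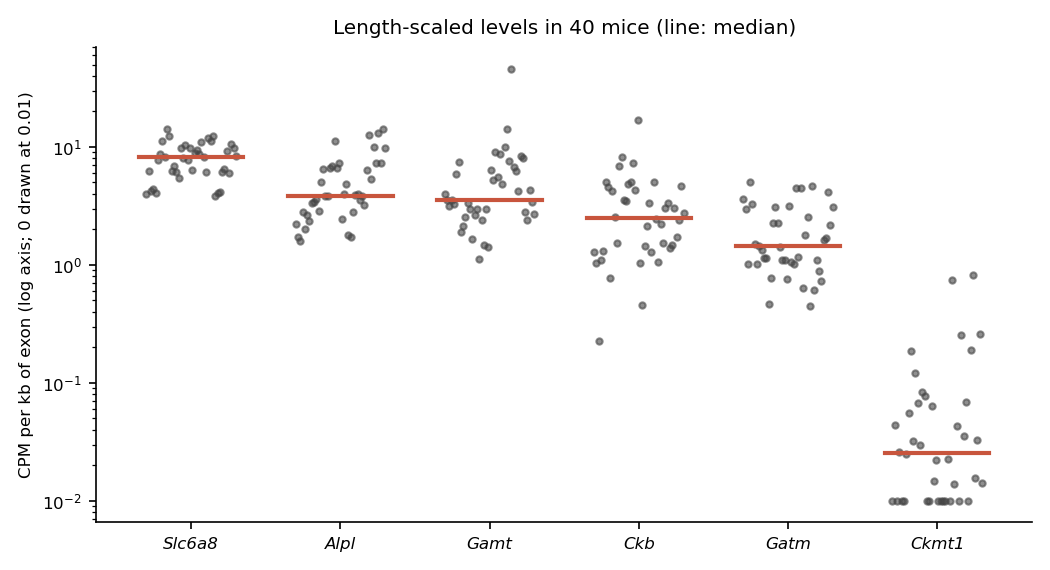
CPM per kb of exon (log axis, values of 0 drawn at 0.01) of the 6 creatine cycle genes, with 1 point per mouse and a line at the median of 40 mice. Slc6a8 has the highest median, 8.16, and Ckmt1 the lowest, 0.0255.

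The members did not share 1 course over the groups. Group means (mean log2 CPM) spanned 7.48-fold for Ckb, 6.56-fold for Gamt, 4.82-fold for Alpl, 2.40-fold for Gatm and 2.14-fold for Slc6a8, while the SD within groups was 0.88, 0.63, 0.47, 0.92 and 0.35 on the log2 scale in the same order. The spread between mice of 1 group was thus as large as the spread of group means for Ckb and larger for Gatm. Correlations between members after removal of the group means lay between -0.39 (Gatm with Alpl) and 0.17 (Gamt with Slc6a8) over 40 mice. These points share library depth and tissue composition, so the correlations are descriptions.

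**Figure D2:**
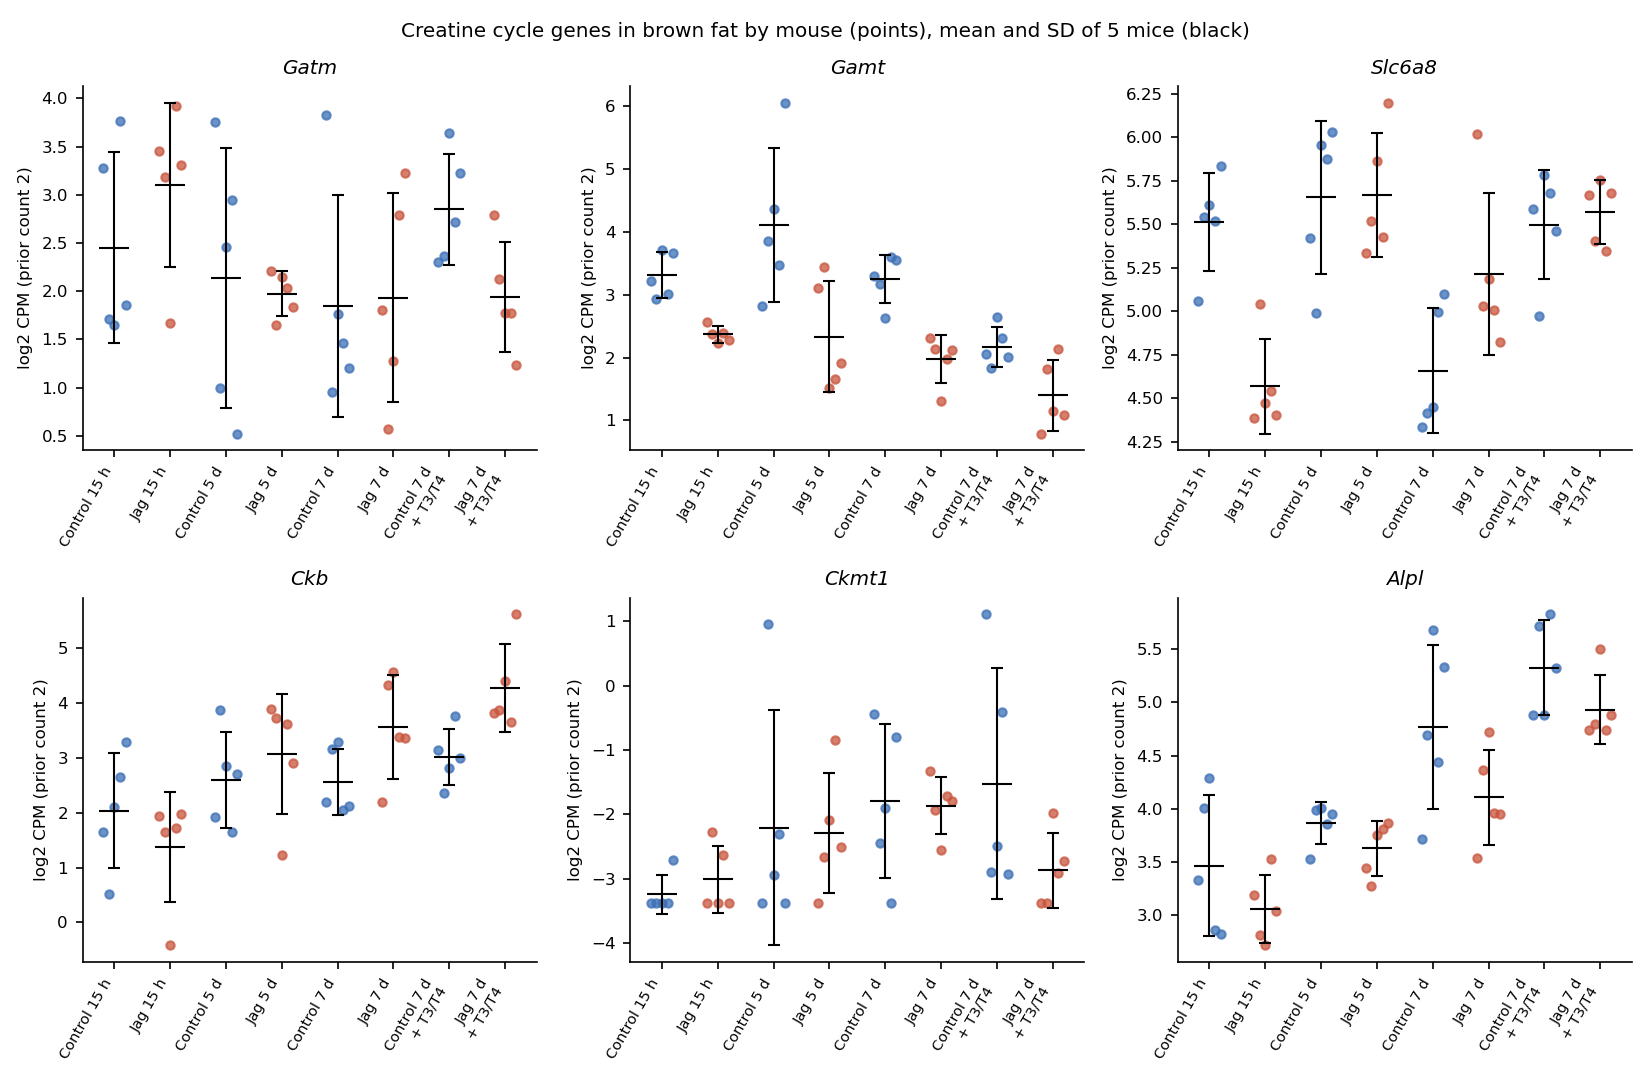
Log2 CPM of the 6 genes in each mouse (points, control antibody in blue, Jag antibodies in red) in the 8 groups, with the mean and SD of 5 mice in black. The Gamt mean is lower under the Jag antibodies at each time, the Alpl mean is highest in the 7 d groups with hormone, and Gatm groups overlap widely.

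Gamt, the methyltransferase that completes creatine (chr10:80258151-80261012, minus strand, GRCm38), showed the largest fitted change among the 5 tested members. At 5 d its level was 6.95, 14.4, 20.6, 11 and 66.7 CPM in control mice 1 to 5 and 8.5, 10.8, 2.77, 3.08 and 3.68 CPM in Jag antibody mice 6 to 10. Control mouse 5 lay far above the others, 2 Jag antibody mice reached into the control range, and the groups overlapped. The fitted level was 4.14-fold lower under the Jag antibodies (log2 fold change -2.05, SE 0.41, edgeR quasi-likelihood adjusted p = 0.00442). Gamt was the 1 member called at 5 d, where 8.02% of all tested genes were called.

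That control mouse also had the highest muscle score of the 40 mice, 13.71, and the 5 control mice at 5 d stood at 5.10 or above. Without it the Gamt difference was -1.25 (SE 0.34, adjusted p = 0.0392). With the muscle score as a covariate it was -1.55 (SE 0.46, adjusted p = 0.123). In a fit of only these 2 groups it was -2.14 (adjusted p = 0.125). Over only the mice with a muscle score of 6 or less, where the spread of the 1 control mouse at 5 d is taken from the other groups, it was -1.32 (SE 0.54, adjusted p = 0.162). Over 40 mice the deviations of Gamt from its group means correlated with those of the muscle score at 0.30, and with those of 6 endothelial markers at -0.56.

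At the other times Gamt was lower too, without passing the test. At 15 h the control mice held 9.25, 7.53, 13.1, 7.98 and 12.6 CPM and the Jag antibody mice 5.82, 5.12, 4.59, 5.14 and 4.78 CPM. At 7 d the control mice held 9.76, 8.96, 6.1, 12 and 11.6 CPM and the Jag antibody mice 4.87, 4.29, 2.4, 3.86 and 4.27 CPM. In both pairs every Jag antibody mouse was below every control mouse, a separation seen in 2.48% of all tested genes at 15 h and 3.31% at 7 d. The log2 fold changes were -0.98 (SE 0.40, adjusted p = 0.257) at 15 h, or -0.96 without control mice 2 and 3, and -1.30 (SE 0.41, adjusted p = 0.075) at 7 d by edgeR's quasi-likelihood test. The 7 d value was called by DESeq2 (-1.32, adjusted p = 0.0364), with offsets for gene length and GC content (-1.13, adjusted p = 0.0444) and without control mouse 3 (adjusted p = 0.0452). Under hormone the groups overlapped, with 4.08, 3.47, 6.2, 4.9 and 3.92 CPM in control mice and 1.64, 3.45, 2.12, 4.32 and 2.04 CPM in Jag antibody mice (-0.73, SE 0.41, adjusted p = 0.507).

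Thyroid hormone lowered Gamt in control mice. The 7 d levels above, 6.1 to 12 CPM, compare with 3.47 to 6.2 CPM under hormone, and 1 hormone-treated mouse reached the lowest untreated one. The fitted change was 2.14-fold lower (log2 fold change -1.10, SE 0.41, adjusted p = 0.0271), in a comparison where 43.2% of all genes were called. The call was lost in 5 of 10 fits that left out 1 mouse (without control mouse 4 or 5 at 7 d, or control mouse 1, 2 or 5 under hormone, adjusted p up to 0.0671). It was also lost in 4 of 10 other settings. With offsets for gene length and GC content the change was -0.56 (SE 0.32, adjusted p = 0.162), and with the replicate block added -0.57 (adjusted p = 0.147). Over mice with a low muscle score it was -0.95 (adjusted p = 0.154), and with no low-count filter -1.06 (adjusted p = 0.0507). The hormone difference in Jag antibody mice was -0.53 (SE 0.41, adjusted p = 0.413).

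Over time in control mice Gamt rose from 15 h to 5 d (log2 fold change 1.24, SE 0.40, adjusted p = 0.0163) where 36.4% of all genes were called, and fell from 5 d to 7 d (-1.30, SE 0.40, adjusted p = 0.0379), where 9.13% were. Both changes use the 5 control mice at 5 d that also enter the antibody comparison at that time. Without control mouse 5 at 5 d they were 0.48 (adjusted p = 0.280) and -0.50 (adjusted p = 0.322). The rise was called in 4 of 11 other settings. With offsets for gene length and GC content it was 0.25 (adjusted p = 0.577), and with the replicate block added 0.13 (adjusted p = 0.778). It was 0.81 with the muscle score as a covariate (adjusted p = 0.168), 0.59 over the mice with a low muscle score (adjusted p = 0.462) and 0.71 by limma-voom (adjusted p = 0.115). Without the myeloid-rich control mice 2 and 3 at 15 h it was 1.35 (adjusted p = 0.0648), and in a fit of only the 2 groups 1.34 (adjusted p = 0.122). The fall was called in 4 of 10 other settings. It was -0.99 with the replicate block (adjusted p = 0.0837), -0.94 with the muscle score as a covariate (adjusted p = 0.209), -0.83 over the mice with a low muscle score (adjusted p = 0.518) and -0.77 by limma-voom (adjusted p = 0.172). In a fit of only the 2 groups it was -1.37 (adjusted p = 0.238), and with no low-count filter -1.35 (adjusted p = 0.0516). The fall was also not called without control mouse 3 at 5 d or control mouse 1, 2 or 3 at 7 d, with values of -1.38 to -1.17. In Jag antibody mice the changes between neighbouring times were 0.17 (SE 0.40) and -0.55 (SE 0.40), neither called. Ordered by group mean, Gamt ran from control 5 d (4.12), control 15 h (3.31) and control 7 d (3.25) down to 2.37, 2.33, 2.18, 1.97 and 1.40 log2 CPM in Jag 15 h, Jag 5 d, control 7 d with hormone, Jag 7 d and Jag 7 d with hormone. Neighbours in that order differed by more than their pooled SD after control 7 d and after Jag 7 d.

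The 250 bases before the RefSeq start of Gamt and of Ckb are shown because these 2 genes had the widest range of group means. RefSeq windows (GRCm38.p6) were found for 5 of 6 members. Capitals mark matches to any of 7 motifs searched on both strands. The Gamt window lies at chr10:80261013-80261262 and the Ckb window at chr12:111672339-111672588, both on the minus strand and written 5′ to 3′ along the gene.
Gamt: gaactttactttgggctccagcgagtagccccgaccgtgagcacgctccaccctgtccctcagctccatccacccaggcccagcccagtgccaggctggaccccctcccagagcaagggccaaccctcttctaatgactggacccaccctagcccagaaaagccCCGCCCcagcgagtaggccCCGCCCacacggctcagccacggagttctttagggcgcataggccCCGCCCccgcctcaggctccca
Ckb: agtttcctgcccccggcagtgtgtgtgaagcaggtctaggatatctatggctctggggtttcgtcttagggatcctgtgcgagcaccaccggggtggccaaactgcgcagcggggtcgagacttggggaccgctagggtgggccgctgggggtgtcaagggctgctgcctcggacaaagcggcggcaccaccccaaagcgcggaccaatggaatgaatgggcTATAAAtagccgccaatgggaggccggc
Gamt has 66.8% GC and 12 CpG dinucleotides in this window and Ckb 62.8% and 16, against medians of 52.4% and 6 over 32851 windows of the same length. The capitals in Gamt are 3 copies of the GC box GGGCGG read on the opposite strand, with their leftmost bases at -86, -67 and -22 from the start, a motif held by 32.7% of all windows. The capitals in Ckb are 1 TATA box, TATAAA, at -28 on the gene's own strand, held by 12.4%. Neither window held the nuclear receptor half-site AGGTCA (14.0% of windows), the direct repeat of that half-site with a spacer of 4 bases that binds thyroid hormone receptors (0.015%), the estrogen-related receptor element TCAAGGTCA (0.387%), the cyclic AMP response element TGACGTCA (1.55%) or the RBPJ element GTGGGAA (5.42%). The half-site was present in the window of Gatm (at -156, opposite strand). It was present in 1 of 2 windows each of Ckmt1 (at -179, opposite strand) and Alpl (at -31, the gene's own strand). A match describes these letters and is not a site.

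Gatm, the amidinotransferase that makes guanidinoacetate (chr2:122594467-122611303, minus strand), was called in 0 of 10 comparisons of 2 groups by edgeR (1 unadjusted p under 0.05), DESeq2 or limma-voom, and its mice varied more within groups than between them. Control mice held 9.57, 3.19, 3.04, 13.5 and 3.52 CPM at 15 h, 13.4, 1.9, 5.4, 7.61 and 1.34 CPM at 5 d and 14.1, 1.84, 3.31, 2.66 and 2.2 CPM at 7 d. Jag antibody mice held 3.08 to 15, 3.05 to 4.55 and 1.39 to 9.26 CPM at the same times, and under hormone the ranges were 4.84 to 12.4 CPM in control mice and 2.26 to 6.81 CPM in Jag antibody mice. High and low mice stood side by side in several groups. The SD of log2 CPM ran from 0.23 (Jag 5 d) to 1.35 (control 5 d) and was 0.57 in both hormone groups. The antibody log2 fold changes were 0.54, -0.62, -0.08 and -0.92 at 15 h, 5 d, 7 d and 7 d with hormone (SE 0.56 to 0.57, adjusted p from 0.541 to 0.951), and the value at 15 h was 0.10 without control mice 2 and 3. The hormone difference in control mice was 0.64 (SE 0.56, adjusted p = 0.373). Without control mouse 1 at 7 d, which held 14.1 CPM, it was 1.59 (adjusted p = 0.0226). It was also called in 1 of 10 other settings, the replicate block with offsets for gene length and GC content (1.34, adjusted p = 0.0303). The block alone gave 1.19 (adjusted p = 0.0544), and over mice with a low muscle score the value was -0.21 (adjusted p = 0.865). The largest change over time was 5 d against 15 h in Jag antibody mice, -1.30 (SE 0.57, adjusted p = 0.115), and it was called in a fit of only these 2 groups (adjusted p = 0.0171).

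Gatm levels went with the nerve markers of the same mice. Its deviations from group means correlated at 0.85 with the score of 6 Schwann cell and nerve markers (their mean log2 CPM, with Sox10, Mbp, S100b and Ncam1 among them), and the Spearman rho of the levels was 0.76 over 40 mice. Mouse 1 of the control group at 7 d, with 14.1 CPM of Gatm, had the highest nerve score of its group, 4.59 against 2.28 to 3.17. The genes with the most similar deviations were Sorcs1 (r = 0.90), Cldn19 (0.89), a claudin of Schwann cells, and Prx (0.89), the periaxin of peripheral myelin. Other members had weaker relations with the nerve score, from -0.35 for Alpl to 0.07 for Ckb. The part of nerve RNA in the Gatm levels was not tested.

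Slc6a8, the creatine transporter (chrX:73673150-73682502, plus strand), had the smallest spread between mice and 4 of the 10 member calls, as many as Gamt. At 15 h the control mice held 33.3, 46.4, 48.7, 45.8 and 57 CPM and the Jag antibody mice 20.8, 32.8, 22.1, 23.1 and 21 CPM. The groups did not overlap, as in 2.48% of all tested genes, though mouse 7 of the antibody group came close to mouse 1 of the control group. The level was 1.93-fold lower under the Jag antibodies (log2 fold change -0.95, SE 0.22, edgeR adjusted p = 0.0341), the 1 member called where 1.14% of all genes were called. The size of this difference moved little, between -1.09 and -0.86 when 1 mouse was left out, but the call did not hold in 6 of those 10 fits (without control mouse 2 or 3, or Jag antibody mouse 6, 8, 9 or 10, adjusted p from 0.0617 to 0.169). The call held in 4 of 9 other settings. Without both myeloid-rich control mice the value was -0.91 (adjusted p = 0.319), and over mice with a low muscle score it was -0.86 (adjusted p = 0.246). It was -0.92 with no low-count filter (adjusted p = 0.072), -0.94 in a fit of only the 2 groups (adjusted p = 0.173) and -0.95 by limma-voom (adjusted p = 0.076).

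At later times no antibody difference in Slc6a8 was called. At 5 d the control mice held 42.8, 31.7, 62, 58.7 and 65.2 CPM and the Jag antibody mice 40.2, 45.8, 58.1, 42.9 and 73.4 CPM, and the fitted difference was 0.0014 on the log2 scale (SE 0.22, adjusted p = 0.998). At 7 d the control mice held 20.1, 21.3, 21.8, 31.8 and 34.1 CPM and the Jag antibody mice 64.7, 32.6, 36.3, 32.1 and 28.2 CPM (0.59, SE 0.22, adjusted p = 0.134). The 64.7 CPM belonged to mouse 6, whose muscle score of 12.33 was the highest of its group. Under hormone the antibody difference was 0.06 (SE 0.22, adjusted p = 0.951). The change of the antibody difference from 15 h to 5 d was itself 0.95 (SE 0.31, adjusted p = 0.148), or 0.86 without control mice 2 and 3 at 15 h, and was not called.

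Hormone raised Slc6a8 in control mice, from the 20.1 to 34.1 CPM above to 48, 31.3, 55, 51.1 and 44 CPM. Mouse 2 of the hormone group was the 1 mouse inside the untreated range. The rise was 1.78-fold (log2 fold change 0.83, SE 0.22, adjusted p = 0.00275) and was called in each of 10 fits that left out 1 mouse, and over mice with a low muscle score (1.09, adjusted p = 0.0093). The call was lost in 2 of 10 other settings. With offsets for gene length and GC content the rise was 0.44 (SE 0.21, adjusted p = 0.0883), and with the replicate block added 0.46 (adjusted p = 0.0775). Slc6a8 and Gamt, the 2 members called for hormone in control mice, moved in opposite directions. Calls in both directions were common in that comparison, where 43.2% of all genes were called and 46.9% of the called genes were higher. In Jag antibody mice, where 9.5% of all genes were called, no member passed the test, and the Slc6a8 difference was 0.30 (SE 0.22, adjusted p = 0.381), with 50.7, 42.2, 53.8, 40.6 and 51.2 CPM under hormone.

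Over time Slc6a8 rose in Jag antibody mice from the 20.8 to 32.8 CPM of 15 h to the 40.2 to 73.4 CPM of 5 d, groups that did not overlap (13.6% of all tested genes). The log2 fold change was 1.12 (SE 0.22, adjusted p = 0.00162), called in all 10 fits that left out 1 mouse and in each of the 10 other settings tried. In that comparison 14.5% of all genes and 2 of 5 tested members were called. In control mice the level fell from 5 d to 7 d (-1.01, SE 0.22, adjusted p = 0.00556), 1 of 3 members called where 9.13% of all genes were called. That fall was called in all 10 fits that left out 1 mouse. It was not called over mice with a low muscle score (-0.63, adjusted p = 0.354) or in a fit of only these 2 groups (-1.07, adjusted p = 0.0727). The order of group means ran from Jag 5 d (5.67) and control 5 d (5.65) through Jag 7 d with hormone (5.57), control 15 h (5.51), control 7 d with hormone (5.50) and Jag 7 d (5.21) to control 7 d (4.66) and Jag 15 h (4.57). Only the step below Jag 7 d exceeded the pooled SD of its neighbours.

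**Figure D3:**
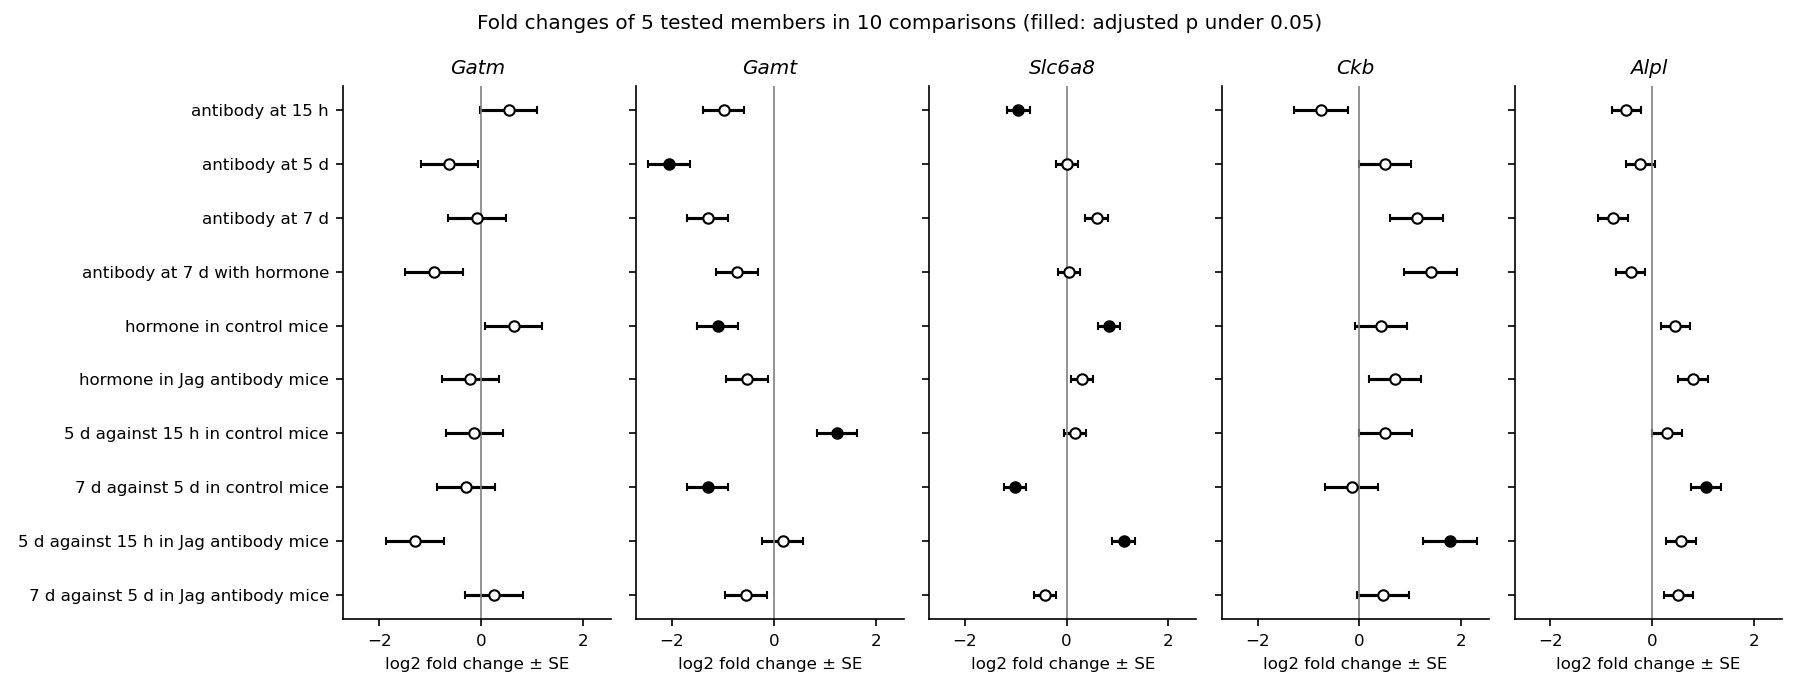
Log2 fold change ± SE of the 5 tested members in 10 comparisons of 2 groups from 1 edgeR fit of 40 mice, with filled points for an adjusted p under 0.05. Gamt is below 0 in the 4 antibody comparisons, and Slc6a8 and Gamt are each called in 4 of the 10 comparisons.

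Ckb, the brain-type creatine kinase (chr12:111669361-111672338, minus strand), had higher group means under the Jag antibodies from 5 d on, though over mice with a low muscle score the difference at 5 d was -0.56 (adjusted p = 0.730). Control mice held 3.72, 14.6, 7.12, 3.04 and 6.46 CPM at 5 d, 4.48, 8.87, 9.69, 4.05 and 4.26 CPM at 7 d, and 8.77, 5.02, 6.98, 13.5 and 7.95 CPM at 7 d with hormone. Jag antibody mice held 14.7, 13.2, 2.26, 12.2 and 7.41 CPM at 5 d, 4.48, 19.9, 23.8, 10.4 and 10.2 CPM at 7 d, and 14, 14.6, 21, 12.5 and 49.4 CPM at 7 d with hormone. At 7 d 4 of 5 Jag antibody mice were above the control mice, and under hormone 4 of 5 were above them as well. The log2 fold changes were 0.51 (SE 0.51, adjusted p = 0.590), 1.13 (SE 0.52, adjusted p = 0.213) and 1.40 (SE 0.52, adjusted p = 0.212), so that none passed edgeR's quasi-likelihood test with Benjamini-Hochberg adjustment. In these comparisons 8.02%, 2.5% and 1.14% of all genes were called. At 15 h the difference had the other sign, -0.76 (SE 0.53, adjusted p = 0.685), with 3.03, 1.33, 4.2, 6.21 and 9.72 CPM in control mice and 3.74, 3.03, 0.655, 3.19 and 3.82 CPM in Jag antibody mice. It was -1.12 without control mice 2 and 3.

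The single call of Ckb was its rise from 15 h to 5 d in Jag antibody mice, 3.43-fold (log2 fold change 1.78, SE 0.53, adjusted p = 0.0244). The mice numbered 8 were the lowest of their groups, and the 2.26 CPM of the one at 5 d lay inside the 15 h range. A number shared by 2 times was not taken to mean the same animal. The call was lost without mouse 8 at 15 h, or without mouse 6, 7 or 9 at 5 d, with values of 1.53 to 1.70 and adjusted p up to 0.0775. The call held in 6 of 10 other settings. With offsets for gene length and GC content the change was 1.27 (adjusted p = 0.0684), with the replicate block added 1.29 (adjusted p = 0.104), and by limma-voom 1.67 (adjusted p = 0.0762). It was 2.36 over mice with a low muscle score (adjusted p = 0.108). The same change in control mice was 0.51 (SE 0.52, adjusted p = 0.443), and the difference between the 2 changes, 1.27 (SE 0.73, adjusted p = 0.431), was not called. The control change took other values in other settings, -0.13 with offsets for gene length and GC content and 0.21 without control mice 2 and 3 at 15 h. Over mice with a low muscle score it was 2.42 (adjusted p = 0.0381), where the 5 d arm is the 1 mouse with the highest Ckb of its group, 14.6 CPM, and its spread is assumed from the other groups. Group means ran from 4.27 log2 CPM in Jag 7 d with hormone through 3.57 (Jag 7 d), 3.08 (Jag 5 d), 3.02 (control 7 d with hormone), 2.60 (control 5 d), 2.56 (control 7 d) and 2.04 (control 15 h) to 1.37 in Jag 15 h, and no neighbours differed by more than their pooled SD. Ckb deviations correlated with the brown adipocyte score at 0.55 and with the muscle score at -0.03. The most similar genes by deviation were Scrn2 (r = 0.82), Esrra (0.80), the estrogen-related receptor alpha of mitochondrial gene control, and Ndn (0.79). By Spearman rho of the levels they were Fam131c (0.84), Nup62 (0.80) and Atad3a (0.79), each over 40 mice.

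Ckmt1, the mitochondrial partner kinase (chr2:121357714-121363737, plus strand), was near the limit of detection and was not tested. Its raw counts were 0, 0, 0, 0 and 1 in control mice at 15 h and 0, 2, 0, 1 and 0 in Jag antibody mice. Control mice held 0, 41, 1, 4 and 0 counts at 5 d, 12, 1, 3, 0 and 10 at 7 d and 41, 1, 2, 14 and 1 under hormone. Jag antibody mice held 0, 1, 3, 9 and 3 counts at 5 d, 7, 3, 2, 3 and 4 at 7 d and 0, 0, 3, 1 and 1 under hormone. Counts above 9 came from 5 of 40 mice, and all 5 were control mice at 5 d or 7 d, yet other mice of those groups held 0 to 4. No fold was computed at these counts. Exons of Ckmt1 share 10 bases with those of Strc, which held at most 6 counts. No other member shares exonic bases with a neighbouring gene.

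Alpl, which encodes the tissue-nonspecific phosphatase TNAP (chr4:137741733-137796384, minus strand), had group means that were higher at each later time and highest in the hormone groups. Control mice held 9.95, 16, 19.5, 7.18 and 6.99 CPM at 15 h, 11.4, 15.8, 16, 14.4 and 15.4 CPM at 5 d, 13, 25.8, 51.1, 21.5 and 40.1 CPM at 7 d and 29.3, 52.5, 29.4, 56.8 and 39.9 CPM at 7 d with hormone. Jag antibody mice held 9, 6.94, 6.49, 11.4 and 8.12 CPM at 15 h, 10.7, 9.57, 13.4, 13.9 and 14.5 CPM at 5 d, 11.5, 20.4, 26.2, 15.5 and 15.4 CPM at 7 d and 26.7, 27.6, 45.3, 26.6 and 29.4 CPM with hormone. At 5 d the 10 mice lay within a narrow band, and at 7 d control mice spread widely. The change from 5 d to 7 d in control mice was 2.08-fold (log2 fold change 1.06, SE 0.29, adjusted p = 0.0209). It was called in 7 of 10 fits that left out 1 mouse. Without control mouse 1 or 3 at 5 d or mouse 3 at 7 d it was 0.78 to 1.07, with adjusted p of 0.0514 to 0.0753. With the muscle score as a covariate it was 0.84 (adjusted p = 0.104), over mice with a low muscle score 0.90 (adjusted p = 0.472), and in a fit of only the 2 groups 1.00 (adjusted p = 0.158). The same change in Jag antibody mice was 0.52 (SE 0.29, adjusted p = 0.357).

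The antibody differences in Alpl were all below 0, at -0.51 (adjusted p = 0.548), -0.23 (0.674), -0.77 (0.137) and -0.42 (0.622) for 15 h, 5 d, 7 d and 7 d with hormone, and none was called. At 15 h the highest control levels, 16 and 19.5 CPM, came from the myeloid-rich mice 2 and 3, and without these mice the difference was 0.07. Without them the change from 15 h to 5 d in control mice was called (0.93, adjusted p = 0.0476), against 0.29 (SE 0.29, adjusted p = 0.430) with them. With hormone Alpl was higher in Jag antibody mice without overlap (26.6 to 45.3 against 11.5 to 26.2 CPM), as in 12% of all tested genes. The log2 fold change was 0.80 (SE 0.29, adjusted p = 0.0676) by edgeR, and it was called by DESeq2 (0.83, adjusted p = 0.037), in a fit of only these 2 groups (0.82, adjusted p = 0.0248), with the replicate block and offsets for gene length and GC content (0.77, adjusted p = 0.0385) and without Jag antibody mouse 8 at 7 d (adjusted p = 0.0355). In control mice the hormone difference was 0.45 (SE 0.29, adjusted p = 0.200), and without control mouse 3 at 7 d it was 0.73 (adjusted p = 0.0413). Group means fell in the order control 7 d with hormone (5.33), Jag 7 d with hormone (4.93), control 7 d (4.77), Jag 7 d (4.11), control 5 d (3.87), Jag 5 d (3.63), control 15 h (3.46) and Jag 15 h (3.06). The gaps below control 7 d with hormone, control 7 d and control 5 d exceeded the pooled SD of the neighbours. The genes most like Alpl by Spearman rho were Fbxl2 (0.88), Gatad2a (0.88) and Actr1a (0.87), and by deviation Atp13a1 (0.79), Ctsz (0.75), a lysosomal cathepsin, and Slc35c1 (0.69). Levels of Alpl and of the endothelial score had a rho of 0.69, while their deviations from group means correlated at 0.29. For Alpl and the myeloid score the rho of levels was -0.015 and the correlation of deviations 0.19 over 40 mice.

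**Figure D4:**
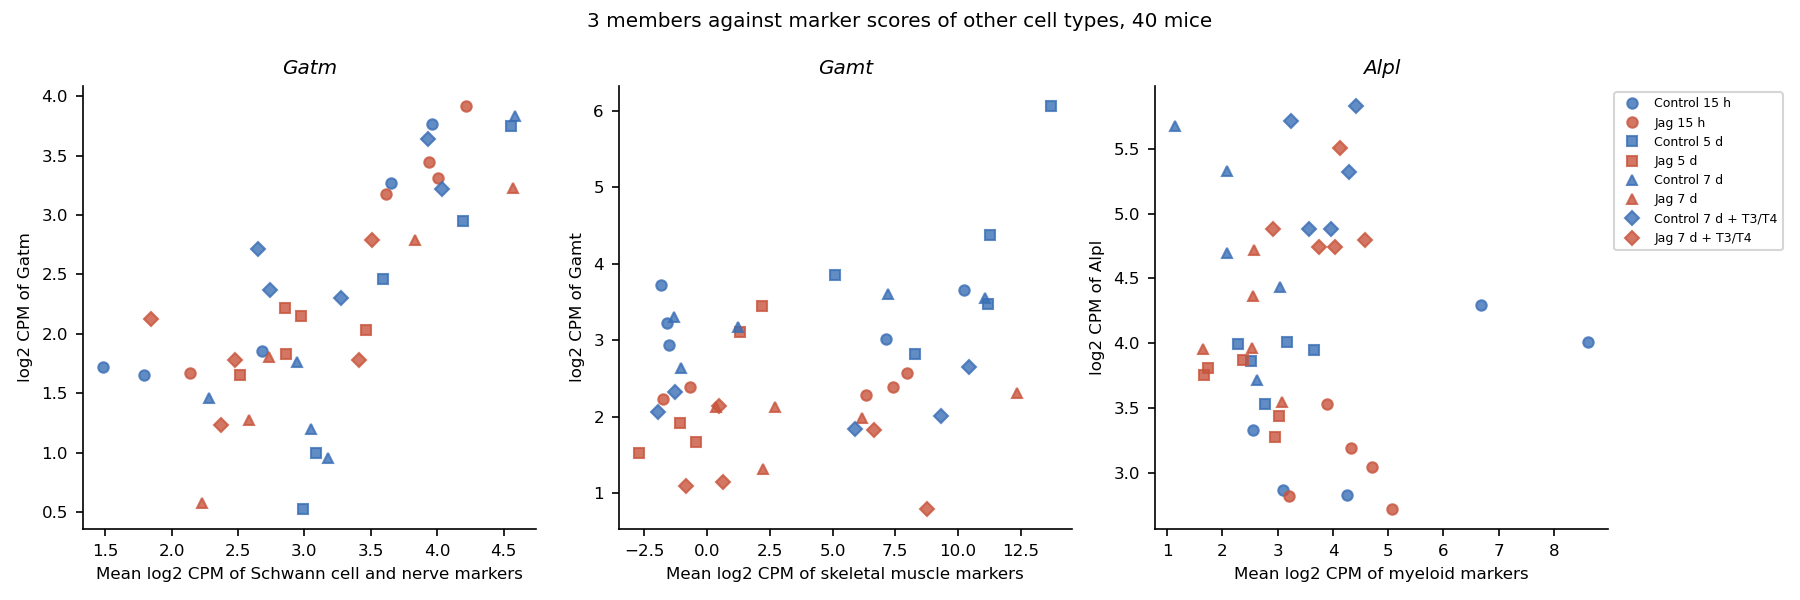
Log2 CPM of Gatm, Gamt and Alpl in 40 mice (y axes) against the mean log2 CPM of Schwann cell and nerve, skeletal muscle and myeloid markers (x axes). Gatm rises along the nerve score, the control mouse with 66.7 CPM of Gamt has the highest muscle score, and control mice 2 and 3 at 15 h stand apart in the myeloid score.

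Interactions were tested directly. For the antibody by hormone interaction at 7 d no member was called, and 0.00586% of all genes were. Member values ran from -0.85 (Gatm, SE 0.80) to 0.57 (Gamt, SE 0.57). For the change of the antibody difference from 15 h to 5 d, 0.0995% of all genes and no member were called, with Gamt at -1.07 (SE 0.57, adjusted p = 0.386). For that from 5 d to 7 d the share was 1.29%, again with no member, and Gamt was at 0.75 (SE 0.57, adjusted p = 0.539). Unadjusted p under 0.05 were reached by 1 member in these 15 tests, Slc6a8 from 15 h to 5 d. Over all 17079 tested genes they were reached by 2103, 2493 and 2844 in the interactions, in the order given. An effect called in 1 group and not in the other was therefore not shown to differ between them.

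Between 0 and 3 of the 5 tested members were called in a comparison of 2 groups. The comparisons from 15 h to 5 d in control mice (1 of 5 tested members, 36.4% of all genes) and for hormone in control mice (2 of 5, 43.2%) had the largest backgrounds, and the member shares were not above them. By edgeR no member was called for the antibody at 7 d, the antibody at 7 d with hormone, hormone in Jag antibody mice or 5 d to 7 d in Jag antibody mice (3.29% of all genes called), while an unadjusted p under 0.05 was reached by 4, 1, 1 and 0 of the 5 tested members. Over all 17079 tested genes such an unadjusted p was reached by 3504, 2026, 4603 and 3078. DESeq2 called 1, 0, 1 and 0 of the 5 tested members and limma-voom none. Among all genes DESeq2 called 858, 449, 2231 and 1331, and limma-voom 360, 313, 1475 and 442. The median log2 fold change of the 5 members was -0.76, -0.23, -0.08 and -0.42 for the antibody at 15 h, 5 d, 7 d and 7 d with hormone, against -0.04, 0.04, 0.05 and -0.02 over all tested genes.

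Genes that supply the precursors of creatine were tested for 9 of 9, and 0 to 4 of them were called in a comparison of 2 groups. Hormone in control mice raised 1 and lowered 1 of the 9, where 43.2% of all genes were called: Slc7a1, the cationic amino acid transporter that imports arginine, by 2.49 (SE 0.46, adjusted p = 9.3e-05), and Asl, argininosuccinate lyase, by -0.63 (SE 0.21, adjusted p = 0.0161), on the log2 scale. In Jag antibody mice hormone raised Slc7a1 by 1.59 (adjusted p = 0.0189) and Shmt1, a serine hydroxymethyltransferase that makes glycine, by 1.26 (adjusted p = 0.00163). The list's median was 0.13 and 0.23 in these comparisons, against 0.04 and -0.04 over all genes. Under the Jag antibodies Shmt1 was higher by 1.00 at 5 d (adjusted p = 0.0149) and by 0.96 at 7 d with hormone (adjusted p = 0.0498), where Asl was also higher by 1.14 (adjusted p = 0.00335). Oat, ornithine aminotransferase, was higher by 0.76 at 7 d (adjusted p = 0.0454). From 15 h to 5 d, 1 of 9 rose and 3 fell in control mice, where 36.4% of all genes were called. There edgeR called 0 of the 9 without control mice 2 and 3 at 15 h (2 unadjusted p under 0.05), with 11.9% of all genes called, a fit not run by another tool. In Jag antibody mice 2 rose and 1 fell, where 14.5% of all genes were called, and Asl rose by 1.12 and Shmt1 by 1.14. Arg1, the liver-type arginase also made by myeloid cells, ran from 0.216 to 719 CPM in control mice at 15 h and from 0.065 to 3.8 CPM in Jag antibody mice. It was called lower under the antibodies (-7.18, SE 1.69, adjusted p = 0.0383) at the time when the myeloid score was high in control mice 2 and 3. Without these mice the Arg1 difference was 1.33 (SE 1.38), of the other sign, and it was not called.

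Methyl donor genes, which feed S-adenosylmethionine to Gamt among other enzymes, were tested for 9 of 10. Hormone in control mice raised 1 and lowered 4 of them, where 43.2% of all genes were called, with a list median of -0.50 against 0.04 over all genes. Gnmt, the glycine methyltransferase that consumes S-adenosylmethionine, fell by 2.26 (SE 0.43, adjusted p = 0.000128), Pemt, the phosphatidylethanolamine methyltransferase, by 1.35 (SE 0.30, adjusted p = 0.000543), and Mtr, methionine synthase, rose by 1.06 (SE 0.22, adjusted p = 0.000293). Adk, adenosine kinase, fell by 0.57 (adjusted p = 0.0156). Gnmt was lower by the same -2.26 with hormone in Jag antibody mice (SE 0.42, adjusted p = 0.000607). It was the 1 call of the list there, where 9.5% of all genes were called. Gnmt rose by 2.33 from 5 d to 7 d in Jag antibody mice (adjusted p = 0.00226), and by 1.57 from 15 h to 5 d in control mice (adjusted p = 0.00549), where 3 of the 9 rose and 2 fell and 36.4% of all genes were called. The Gnmt change was 1.41 without control mice 2 and 3 at 15 h (adjusted p = 0.0643). The 4 antibody comparisons gave 1 call, Ahcy, which hydrolyses S-adenosylhomocysteine and was higher by 1.41 at 7 d with hormone (adjusted p = 0.00897). Of all genes, 1.14% (15 h), 8.02% (5 d), 2.5% (7 d) and 1.14% (7 d with hormone) were called in these comparisons.

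Genes of ATP and ADP exchange were tested for 9 of 9. At 5 d 3 of 9 were called lower under the Jag antibodies, where 8.02% of all genes were called. They were Ak1, adenylate kinase of the cytosol, by -2.26 (SE 0.56, adjusted p = 0.0125), Slc25a4, the adenine nucleotide translocase of heart and muscle, by -2.05 (SE 0.50, adjusted p = 0.0111), and Vdac1, a channel of the outer mitochondrial membrane, by -0.84 (adjusted p = 0.0489). Of the 8 muscle markers 6 were lower in the same comparison. The list median there was -0.18, against 0.04 over all genes. At 5 d edgeR called 0 of the 9 over mice with a low muscle score (2 unadjusted p under 0.05, 2.17% of all genes called), again with no other tool run, with Ak1 at -1.11 (adjusted p = 0.112) and Slc25a4 at -0.78 (adjusted p = 0.282). From 15 h to 5 d in control mice 5 of 9 rose, led by Slc25a4 (2.23) and Ak1 (2.03), where 36.4% of all genes were called. The muscle score was 7.42 higher at 5 d in that comparison (exact permutation p = 0.0556, adjusted 0.193). There 1 of the 9 was called without control mice 2 and 3 at 15 h, Slc25a4 (1.89, adjusted p = 0.0325), with 11.9% of all genes called. Hormone in control mice lowered 4 of 9, near the 43.2% called over all genes, with a list median of -0.66, among them Slc25a5, the translocase of many tissues, by -1.08 (adjusted p = 0.000452), Vdac2 by -0.94 and Vdac3 by -0.66. From 5 d to 7 d in control mice Slc25a5 rose by 0.74.

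Of 5 other creatine transport and phosphatase genes, 2 were tested. Phospho1, a phosphatase of mineralizing cells, rose by 0.76 from 15 h to 5 d in control mice (adjusted p = 0.0414), with a value of 0.61 without control mice 2 and 3 at 15 h (adjusted p = 0.213), and Slc16a12, a creatine transporter of the monocarboxylate family, was not called. Of 11 thermogenic genes, 7 fell with hormone in control mice, where 43.2% of all genes were called, among them Elovl3 (-3.52), Cox8b (-2.87), Cidea (-2.05) and Cox7a1 (-1.96). Their list median was -1.22, against 0.04 over all genes. There 2 of 11 were called lower over mice with a low muscle score, with 13.8% of all genes called. The brown adipocyte score fell with them, from 9.38 ± 0.33 to 8.46 ± 0.26 (SD, n = 5 each, exact permutation p = 0.00794, adjusted 0.0907), while scores of myeloid and of progenitor and fibroblast markers rose by 1.71 and 1.99 with the same p. Gamt fell and Slc6a8 rose in that same comparison. The part of changed cell content was not tested. In Jag antibody mice hormone lowered 2 of 11, where 9.5% of all genes were called. They were Adrb3, the beta-3 adrenergic receptor of adipocytes, by -3.40 (SE 0.39, adjusted p = 1.5e-06) and Elovl3 by -2.78 (adjusted p = 0.0335).

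Genes most like the remaining members were listed by the same rule over 40 mice. For Gamt they were Ntpcr (rho 0.79), Dynll1 (0.77) and Pcbd1 (0.76) by level, and Fam213b (r = 0.82), Rpl14 (0.81) and Thy1 (0.80) by deviation from group means. For Slc6a8 they were Zkscan17 (rho 0.82), Pbxip1 (0.78) and Kremen1 (0.76) by level, and Zkscan17 (r = 0.80), Egflam (0.77) and Rnf157 (0.76) by deviation. For Gatm by level they were Sorcs1 (0.83), Cldn19 (0.83) and Sept3 (0.82). Slc6a8 deviations correlated with the muscle score at 0.44 and with the brown adipocyte score at -0.41.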

How the data were processed

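The authors deposited raw counts per Ensembl gene, whole numbers from brown adipose tissue of 40 mice, with each column tied to a mouse by the identifier in its label. Per the labels' protocols, RNA was extracted with Trizol and columns and read as single-end 50 bp reads on an Illumina HiSeq instrument. The submitters' processing notes name GSNAP and limma. The genome build, the counting program and the use of strand are not given in the sources used here. A companion FPKM table was not used here. Of 52636 gene IDs, 52403 had a symbol and 52489 were in GENCODE M21 (GRCm38), which gave coordinates and exon lengths.

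The test was edgeR's quasi-likelihood F test (edgeR 4.0.16, R 4.3.3), with filterByExpr over the 8 groups (17079 genes kept), TMM scaling, and 1 robust fit of all 40 mice with a mean per group. Calls need a Benjamini-Hochberg adjusted p under 0.05 over all tested genes, and the SE is the one implied by the F statistic. Log2 CPM uses a prior count of 2, and fold changes are relative to the TMM scale. Depth limits Ckmt1 most, at 0 to 41 counts per library. The fit was tested on simulated counts first. Marker scores are mean log2 CPM over each list, compared by exact two-sided permutation tests of 252 arrangements.

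Named are the 6 members, up to 4 called genes per pathway list and comparison, and the 3 genes most like each tested member. Likeness was taken by Spearman rho and by Pearson r of deviations from group means, with unnamed gene models passed over. Not every member's value is printed for every comparison, and Ckmt1 was not tested. The members and lists were chosen with earlier results of these data known. Alternatives were DESeq2 1.42.0, limma-voom (limma 3.58.1), RLE size factors, no low-count filter, a covariate for the muscle score, fits of the compared groups alone, offsets for length and GC content, a replicate block, and leaving out each mouse. Fits without the myeloid-rich mice and over mice with a muscle score of 6 or less were added after the data were seen. Libraries of a group differed with a chi-square of at least 19.4 per degree of freedom, so each was counted as its own sample. Some members of the marker and pathway lists entered the scores and counts and are not reported here by name.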

Additional observations from a re-analysis of the deposited data

Results flagged for a closer look

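In 48 groups of 5 mice (6 members in 8 groups), 6 held a mouse whose gap to the nearest other mouse exceeded 0.71 of the group's range on the log2 CPM scale, where chance gives about 2.4. Gatm stood at 3.83 in control mouse 1 at 7 d, the mouse with the highest nerve score of its group. Ckb stood at -0.41 in Jag antibody mouse 8 at 15 h, from 10 counts. Slc6a8 stood at 5.04 in Jag antibody mouse 7 at 15 h, above the other 4 mice. Alpl stood at 5.50 in Jag antibody mouse 8 with hormone. Ckmt1 stood at -2.71 in control mouse 5 at 15 h, which rests on 1 count, and at 0.96 in control mouse 2 at 5 d, from 41 counts.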

How the results depend on the processing

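The 10 member calls kept their direction in all 98 values from other settings and passed the threshold in 62 of them. Over all member values, 33 of 625 had the other sign, none of them a call. The cause of the changes was not tested. Low counts limit Ckmt1, and the spread between mice limits Ckb and Gatm. Replicate numbers are shared by the hormone and time comparisons only. Same-numbered mice correlated at 0.09 to 0.21 on average, with pairs down to -0.54, and a mouse was closest to its own number in 2 to 6 of 10 cases. The lowest of these is what a random pick among 5 mice gives. The reported fit does not take the numbers as pairs, and whether a number marks anything shared was not tested. With the replicate block 7424 genes were called for hormone in controls and 1496 in Jag mice, and Gamt from 5 d to 7 d in control mice was -0.99 (adjusted p = 0.0837). No paired analysis was possible for the antibody comparisons because the groups share no number.

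Genes called in the reported fit numbered 194 (antibody 15 h), 1369 (antibody 5 d), 427 (antibody 7 d), 194 (antibody with hormone), 7378 (hormone in controls), 1622 (hormone in Jag mice), 6214 (controls to 5 d), 1559 (controls to 7 d), 2470 (Jag mice to 5 d), 562 (Jag mice to 7 d), 1 (antibody by hormone), 17 (antibody change to 5 d) and 220 (antibody change to 7 d). Here "to 5 d" means from 15 h and "to 7 d" from 5 d. With no low-count filter, 26 (antibody 15 h), 837 (antibody 5 d), 191 (antibody 7 d), 117 (antibody with hormone), 990 (hormone in Jag mice), 818 (controls to 7 d), 247 (Jag mice to 7 d), 0 (antibody by hormone), 6 (antibody change to 5 d) and 63 (antibody change to 7 d) genes were called. With the muscle score in the model, 118 (antibody 15 h), 89 (antibody 5 d), 378 (controls to 7 d) and 0 (antibody by hormone, antibody change to 5 d, antibody change to 7 d) genes were called. With length and GC offsets, 299 (antibody 15 h), 303 (antibody with hormone), 963 (Jag mice to 7 d), 0 (antibody by hormone) and 119 (antibody change to 5 d) genes were called. In fits of only the groups compared, 0 (antibody 15 h, controls to 5 d, antibody by hormone), 431 (antibody 5 d), 53 (antibody 7 d), 694 (antibody with hormone), 2782 (hormone in Jag mice), 161 (controls to 7 d), 155 (Jag mice to 7 d) and 2 (antibody change to 5 d, antibody change to 7 d) genes were called. By limma-voom, 10 (antibody 15 h), 832 (antibody 5 d), 313 (antibody with hormone), 0 (antibody by hormone), 5 (antibody change to 5 d) and 7 (antibody change to 7 d) genes were called. By DESeq2, 577 (antibody 15 h), 858 (antibody 7 d), 449 (antibody with hormone), 1331 (Jag mice to 7 d), 9 (antibody by hormone), 498 (antibody change to 5 d) and 964 (antibody change to 7 d) genes were called. Without control mice 2 and 3 at 15 h, 3 (antibody 15 h), 2093 (controls to 5 d) and 10 (antibody change to 5 d) genes were called. Over mice with a muscle score of 6 or less, 0 (antibody 15 h, antibody by hormone, antibody change to 5 d), 405 (antibody 5 d), 18 (antibody 7 d), 9 (antibody with hormone, controls to 7 d), 2573 (hormone in controls), 421 (hormone in Jag mice), 195 (Jag mice to 5 d), 131 (Jag mice to 7 d) and 3 (antibody change to 7 d) genes were called. With the replicate block plus length and GC offsets, 2443 (controls to 7 d), 1566 (Jag mice to 5 d), 0 (antibody by hormone), 138 (antibody change to 5 d) and 402 (antibody change to 7 d) genes were called. With the replicate block, 0 (antibody by hormone), 51 (antibody change to 5 d) and 371 (antibody change to 7 d) genes were called.

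Counts of members called, of the 5 tested, also moved. Genes called in the same fits are given above or beside the counts. With no low-count filter they were 0 (antibody 15 h) and 1 (hormone in controls, with 6523 genes called). In fits of only the groups compared they were 0 (antibody 15 h, antibody 5 d, controls to 5 d, controls to 7 d), 1 (hormone in Jag mice) and 4 (Jag mice to 5 d). The last of these fits called 3550 genes. By limma-voom they were 0 (antibody 15 h, controls to 5 d) and 1 (Jag mice to 5 d), with 5573 (controls to 5 d) and 2169 (Jag mice to 5 d) genes called. Without control mice 2 and 3 at 15 h they were 0 (antibody 15 h). Over mice with a muscle score of 6 or less they were 0 (antibody 15 h, antibody 5 d, controls to 7 d) and 1 (hormone in controls, Jag mice to 5 d). With the muscle score in the model they were 0 (antibody 5 d, controls to 5 d) and 1 (controls to 7 d), with 4230 genes called for controls to 5 d. With length and GC offsets they were 1 (antibody 7 d, Jag mice to 5 d) and 0 (hormone in controls, controls to 5 d). These fits called 596 (antibody 7 d), 1799 (Jag mice to 5 d), 6821 (hormone in controls) and 4583 (controls to 5 d) genes. By DESeq2 they were 1 (antibody 7 d, hormone in Jag mice). With the replicate block plus length and GC offsets they were 1 (hormone in controls, hormone in Jag mice, Jag mice to 5 d) and 0 (controls to 5 d). Genes called there numbered 6792 (hormone in controls), 2021 (hormone in Jag mice) and 4242 (controls to 5 d).

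Some log2 fold changes that were no calls took the other sign. Without control mice 2 and 3 at 15 h the value was 0.067 (Alpl, antibody 15 h) and -0.35 (Alpl, antibody change to 5 d). With RLE size factors the value was -0.072 (Slc6a8, antibody 5 d). With no low-count filter the value was -0.035 (Slc6a8, antibody 5 d). In fits of only the groups compared the value was -0.063 (Slc6a8, antibody 5 d). By DESeq2 the value was -0.071 (Slc6a8, antibody 5 d). Over mice with a muscle score of 6 or less the value was -0.56 (Ckb, antibody 5 d), 1.03 (Gatm, antibody 5 d), -0.21 (Gatm, hormone in controls), -0.37 (Slc6a8, controls to 5 d), 1.74 (Gatm, controls to 7 d), -0.060 (Ckb, antibody change to 5 d), 0.20 (Gatm, antibody change to 5 d), -1.58 (Gatm, antibody change to 7 d) and -0.069 (Slc6a8, antibody change to 7 d). With length and GC offsets the value was 0.085 (Gatm, antibody 7 d), -0.13 (Ckb, controls to 5 d), 0.17 (Gatm, controls to 5 d), -0.090 (Slc6a8, controls to 5 d), -0.048 (Alpl, controls to 5 d), 0.051 (Ckb, controls to 7 d) and -0.42 (Gamt, Jag mice to 5 d). By limma-voom the value was 0.043 (Gatm, hormone in Jag mice), 0.044 (Ckb, controls to 7 d), -0.11 (Gamt, Jag mice to 5 d) and -0.078 (Gatm, Jag mice to 7 d). With the muscle score in the model the value was -0.095 (Slc6a8, controls to 5 d) and -0.20 (Alpl, antibody change to 5 d). With the replicate block plus length and GC offsets the value was -0.19 (Ckb, controls to 5 d), 0.0086 (Gatm, controls to 5 d), -0.12 (Slc6a8, controls to 5 d), 0.080 (Ckb, controls to 7 d) and -0.46 (Gamt, Jag mice to 5 d).

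When 1 mouse was left out, genes called ranged over 6 to 753 (antibody 15 h), 385 to 2726 (antibody 5 d), 144 to 848 (antibody 7 d), 80 to 232 (antibody with hormone), 5977 to 7543 (hormone in controls), 1048 to 1912 (hormone in Jag mice), 4299 to 7659 (controls to 5 d), 492 to 2642 (controls to 7 d), 1164 to 3252 (Jag mice to 5 d), 213 to 617 (Jag mice to 7 d), 0 to 2 (antibody by hormone), 2 to 151 (antibody change to 5 d) and 5 to 968 (antibody change to 7 d). Members called ranged over 0 to 1 (antibody 15 h), 0 to 1 (antibody 7 d), 1 to 3 (hormone in controls), 0 to 1 (hormone in Jag mice), 0 to 1 (controls to 5 d), 1 to 3 (controls to 7 d) and 1 to 2 (Jag mice to 5 d) and did not vary in the other comparisons. Signs varied over -0.19 to 0.083 (Slc6a8, antibody 5 d), -0.49 to 0.88 (Gatm, antibody 7 d), -0.052 to 0.13 (Slc6a8, antibody with hormone), -0.49 to 0.21 (Gatm, hormone in Jag mice), -0.62 to 0.38 (Gatm, controls to 5 d), -0.37 to 0.24 (Ckb, controls to 7 d), -1.28 to 0.20 (Gatm, controls to 7 d), -0.18 to 0.35 (Gamt, Jag mice to 5 d), -0.16 to 0.49 (Gatm, Jag mice to 7 d), -0.25 to 0.56 (Ckb, antibody by hormone), -0.0017 to 0.41 (Alpl, antibody change to 5 d) and -0.050 to 1.11 (Gamt, antibody change to 7 d).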
